A study of Mus musculus with 44 samples.

Results

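The 15 HET1 embryos of the series, out of 44 single two-cell embryos sequenced, came from 2 matings, and the comparison described here sets one litter against the other. HET1a to HET1g (7 embryos) were assigned by their labels to mating 1 and HET1h to HET1o (8 embryos) to mating 2. All 15 were Dppa2/4+/- embryos from Dppa2/4m- females crossed with Dppa2/4+/+ males. In these females the conditional Dppa2/4 alleles were removed in growing oocytes by Zp3-Cre, a Cre recombinase driven by an oocyte promoter, so that the only functional copy in each embryo was the paternal one. Embryos were collected at E1.5 after natural mating, and each was sequenced as its own Smart-seq2 library, which primes on poly(A) tails. Genotype, cross, strain and nominal stage were therefore the same in both litters. Each litter was a single mating, so the p-values below measure the spread between embryos, and litter, dam, exact stage at collection, day of collection and library preparation cannot be told apart. In the wider study, Dppa2/4+/+ embryos (WT, 14 embryos) and embryos of Dppa2/4m- females crossed with Dppa2/4+/- males (HET2 and HOM) were sequenced in the same way to ask whether maternal Dppa2 and Dppa4 are needed for genome activation.

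At the two-cell stage the mouse embryo passes from the transcripts stored in the oocyte to its own. Maternal mRNAs are deadenylated and degraded, a minor wave of transcription starts in the late zygote and early two-cell embryo and includes the transient 2C genes such as the Zscan4 and Tcstv families, and a major wave follows in the middle to late two-cell embryo. Genes for nucleolar assembly, ribosome production, translation and protein turnover are prominent in the major wave, while maternal transcripts decline as it proceeds. A difference between litters can thus be described by which of these classes is higher in which litter.

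Total reads per embryo ranged from 360380 to 1417242 in mating 1 and from 247667 to 1830316 in mating 2, with medians of 663861 and 524828 (exact permutation test of the means over 6435 splits, two-sided, p = 1). Deposited values were log2 RPM, the reads of a gene scaled to the depth of its library, and every value under 1.86, the highest value that stands for 0 reads in any of the 15 embryos, was raised to 1.86, here called the floor. Genes of the 2C programme were read throughout, with Zscan4d, Zfp352, Tdpoz1 and Obox3 in all 15 embryos and Zscan4c in 4 of 7 and 7 of 8. The maternal transcripts Dppa3, Zp3 and Omt2b were also read in all 15. Markers of other cells were scarce. The 12 cumulus and granulosa genes summed to between 31.6 and 73.2 RPM in mating 1 and between 11.5 and 58.7 RPM in mating 2, with Ptgs2, Has2, Ptx3, Amh, Fshr and Inhba at 0 reads in every embryo. The 8 oviduct epithelium genes summed to at most 13.9 and 40.3 RPM, with Pax8, Foxj1, Krt7 and Wt1 at 0. The 10 blood and immune genes summed to at most 8.87 and 3.79 RPM, with Ptprc, Lyz2, Hbb-bs, Hbb-bt and C1qa at 0. Of 10 sperm genes 8 had no read, among them Prm1 and Tnp1, and the sum ran from 18.1 to 66.6 RPM in mating 1 (median 39.3) and from 0 to 27.5 RPM in mating 2 (median 12.4). The cumulus and granulosa medians were 43.7 and 15.0 RPM. The part of these markers in the results was not tested.

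The 2 litters formed separate groups. Differences are given throughout as mating 2 minus mating 1 on the log2 scale. Of 9207 genes with a mean of at least 2.5 log2 RPM, 2823 differed (30.7% of those tested; limma, Benjamini-Hochberg adjusted p under 0.05). Of these, 832 genes were higher in mating 2 (9.04% of those tested) and 1991 were lower (21.6%). In 490 genes (5.32%) no embryo of one litter overlapped any embryo of the other, 159 of them higher in mating 2 and 331 lower. The first principal component of the 15 embryos carried 33.5% of the variance and placed every embryo of mating 1 on one side, from -86.2 for HET1e to -26.2 for HET1f, and every embryo of mating 2 on the other, from 12.8 for HET1m to 100.3 for HET1h. The second component (14.8%) ran within both litters. Pearson correlations across the tested genes, which are not independent replicates, had a median of 0.788 over the 21 pairs within mating 1, 0.777 over the 28 pairs within mating 2 and 0.655 over the 56 pairs between litters. HET1f came closest to the other litter, with a median correlation of 0.782 with its littermates and 0.753 with mating 2, and HET1h was farthest, with 0.775 and 0.562.

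**Figure D1:**
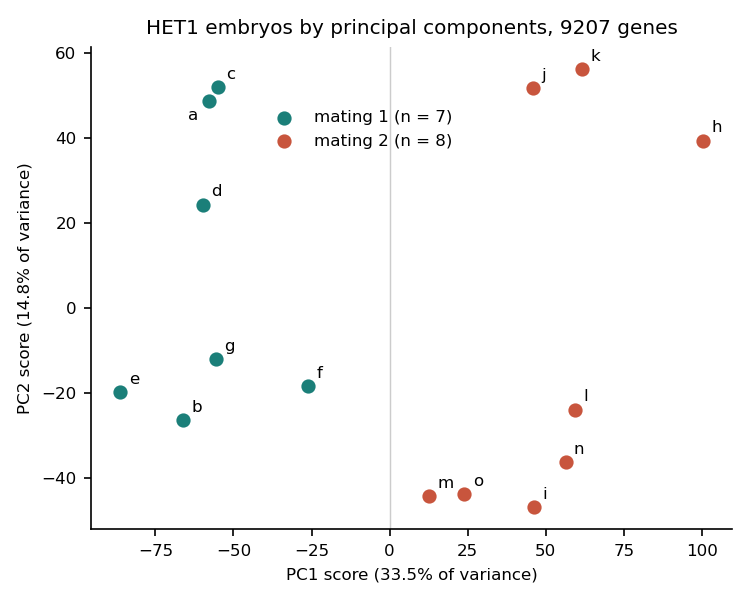
Principal component scores of the 15 HET1 embryos from 9207 genes (floored log2 RPM), 1 point per embryo with its letter. Mating 1 (green) lies between -86.2 and -26.2 on the first component and mating 2 (orange) between 12.8 and 100.3, while both litters spread along the second.

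The split into higher and lower genes depended on how the embryos were scaled. The median difference over all 9207 genes was -0.32. With each embryo centred on the median of its tested genes, 1486 genes were higher (16.1% of those tested) and 1130 lower (12.3%) in mating 2, and with quantile normalisation 1302 were higher and 1417 lower. The higher share of the calls was 29.5% as deposited, 56.8% after centring and 47.9% after quantile normalisation. Of the 2823 calls, 1962 kept their call and direction after centring and 2176 after quantile normalisation, and in 0 cases was a gene called in the opposite direction. Counts for the gene lists are therefore given below as deposited and after centring. The lists and their members were chosen with earlier results of these data known, so their counts are descriptions.

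Dppa2 and Dppa4, the paired genes whose maternal copies were deleted, lie side by side on chromosome 16 (GRCm38) from 48303908 to 48319723 and from 48283733 to 48294237, on the forward strand. Both were read in all 15 embryos. Dppa2 ranged from 6.00 to 8.43 log2 RPM in mating 1 (median 7.18) and from 5.33 to 6.42 in mating 2 (median 5.60). Only HET1g of mating 1 lay within the range of mating 2, and Dppa2 was lower in mating 2 by a difference of -1.56 (SE 0.34, limma, adjusted p = 0.000885). Dppa4 ranged from 5.78 to 7.36 in mating 1 (median 6.20) and from 3.40 to 5.73 in mating 2 (median 4.71). Its litters did not overlap, and it was lower in mating 2 by a difference of -1.79 (SE 0.42, adjusted p = 0.0017). Pooled over the litter, Dppa2 stood at 233 RPM in mating 1 and 60.2 RPM in mating 2, and Dppa4 at 89.4 and 29.0 RPM. Both calls held under every alternative. Embryos of the same labelled genotype thus differed in the 2 genes that define it, and in WT embryos, which carry intact maternal and paternal copies, Dppa2 averaged 8.57 and 8.19 log2 RPM in the 2 litters and Dppa4 7.13 and 7.13.

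The 10 genes named for the largest differences with higher levels in mating 2 were Oosp3, Tcstv1, Rfpl4, Smco4, Stard3nl, Obox5, Gnpda2, Bmp5, AA545190 and AF067061, chosen among genes whose litters did not overlap. Oosp3, which encodes an oocyte-secreted protein, ranged from 5.38 to 7.88 log2 RPM in mating 1 (median 5.94) and from 9.93 to 12.3 in mating 2 (median 10.4), a difference of 4.30 (SE 0.32, limma, adjusted p = 9.16e-12). In reads, this was 15 to 156 per embryo against 241 to 7211, and HET1h held the most. Rfpl4, an oocyte RING-finger protein gene, ranged from 2.67 to 6.10 and from 7.48 to 9.98, a difference of 4.15 (SE 0.40, adjusted p = 4.07e-09). Obox5, an oocyte homeobox gene, ranged from 5.61 to 7.67 and from 9.59 to 10.7, a difference of 3.49 (SE 0.27, adjusted p = 1.77e-11). Bmp5, a secreted ligand of the TGF-beta superfamily, ranged from 4.28 to 6.18 and from 8.10 to 8.82, a difference of 3.26 (SE 0.29, adjusted p = 8.25e-10). Tcstv1, a 2C gene, was at the floor in HET1a, HET1c and HET1d and reached 4.91 in HET1f, against 5.74 to 8.08 in mating 2, a difference of 4.23 (SE 0.48, adjusted p = 1.04e-07). AF067061, another gene of the 2C list, had at most 9 reads in mating 1 and 14 to 112 in mating 2. Gnpda2, which encodes a glucosamine-6-phosphate deaminase, had at most 4 reads in mating 1 and 6 to 113 in mating 2. Smco4, Stard3nl and AA545190 differed by 3.70, 3.53 and 3.22. Exonic bases are shared by Oosp3 with Gm19224, by Gnpda2 with Guf1 and by Bmp5 with Gm26903, and counting ignored strand, so reads of these pairs cannot be told apart.

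The 10 genes named for the largest differences with lower levels in mating 2 were Nipal1, Slc4a11, Abce1, Tor1b, Uqcrc1, Clpp, Mt2, Wdr74, Impdh2 and Zfp977. Several of these genes were near the detection limit in mating 2, where their fitted difference depends on the floor, so pooled levels are given beside it. Nipal1, which encodes a putative magnesium transporter, ranged from 4.75 to 7.39 log2 RPM in mating 1 (11 to 237 reads), whereas in mating 2 it had at most 5 reads and exceeded the floor only in HET1l. HET1l had the fewest total reads, 247667, and sets the floor, so a single read exceeds the floor there. The pooled level of Nipal1 was 109 RPM in mating 1 and 1.64 RPM in mating 2 (difference -4.41, SE 0.51, limma, adjusted p = 1.88e-07). Slc4a11, a membrane transporter gene, had 26 to 91 reads in each embryo of mating 1 and reads in 3 of 8 embryos of mating 2, with pooled levels of 75.7 and 2.62 RPM. Abce1, an ATPase that splits ribosomes for recycling, had 18 to 203 reads and reads in 3 of 8 embryos, at 87.7 and 1.80 RPM. Uqcrc1, a core subunit of respiratory complex III, stood at 64.5 and 3.93 RPM, and Clpp, the mitochondrial matrix protease, at 72.0 and 5.73 RPM. Mt2, a metallothionein that binds zinc and copper, ranged from 7.31 to 8.38 in mating 1 and from the floor to 5.48 in mating 2, a difference of -3.75 (SE 0.42, adjusted p = 1.04e-07). Tor1b, an endoplasmic reticulum ATPase gene, ranged from 7.33 to 8.65 and from the floor to 6.05. Wdr74, a ribosome assembly factor, Impdh2, the rate-limiting enzyme of guanine nucleotide synthesis, and Zfp977, a zinc finger gene, differed by -3.71, -3.68 and -3.63. Mt2 shares exonic bases with Gm45774 and Impdh2 with Ndufaf3.

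**Figure D2:**
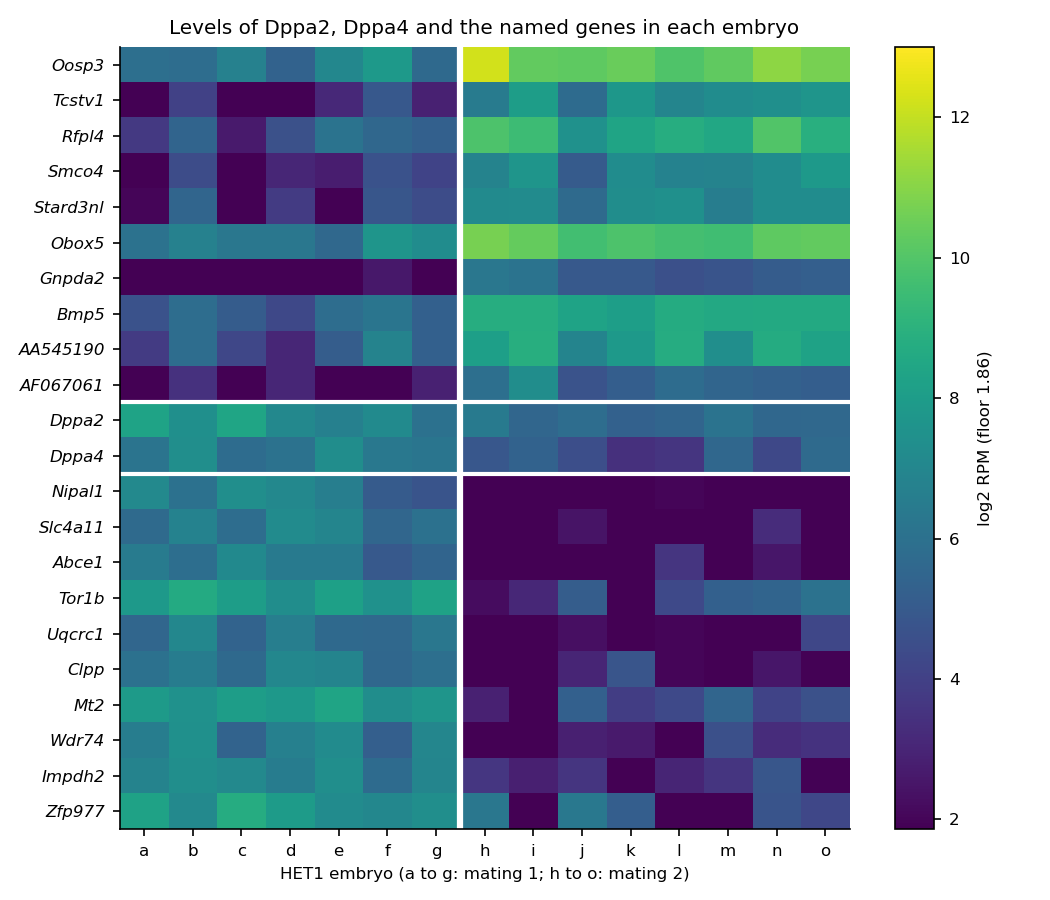
Levels in log2 RPM (colour, floor 1.86) of the 10 named genes highest in mating 2, Dppa2 and Dppa4, and the 10 named genes lowest in mating 2 (rows) in each HET1 embryo (columns, mating 1 left and mating 2 right). Apart from Dppa2, in which HET1g falls within the range of mating 2, no row overlaps between litters. Nipal1 is above the floor in mating 2 only in HET1l, the library with the fewest reads.

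Sequence upstream of the start site is shown for genes at both ends of the comparison, since the classes below are often grouped by their promoters. Taking genes with non-overlapping litters in order of their difference, the first 3 in each direction were used that had 1 RefSeq start and no annotated exon in the 100 bases before it (GRCm38.p6, RefSeq, 5′ to 3′ on the strand of the gene). Capitals mark matches, on either strand, to 6 motifs. These were the general promoter elements spelled CCAAT, the GC box spelled GGGCGG and the TATA box spelled TATAAA. The E-box was spelled CACGTG, the motif bound by ETS-type factors CTTCCGG and that bound by bicoid-type homeobox factors GGATTA. Nlrp4e, Nlrp9a, Uqcc3 and Itgb5 were brought in by this rule after their values were seen. In mating 2 the levels ranged from 4.71 to 7.32 log2 RPM for AF067061, from 4.40 to 6.82 for Nlrp4e and from 5.75 to 8.74 for Nlrp9a. The last 3 sequences belong to genes lower in mating 2.
AF067061 (chr13:120262995-120263094, +): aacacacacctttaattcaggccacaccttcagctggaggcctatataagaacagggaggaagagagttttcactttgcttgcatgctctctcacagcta
Nlrp4e (chr7:23301092-23301191, +): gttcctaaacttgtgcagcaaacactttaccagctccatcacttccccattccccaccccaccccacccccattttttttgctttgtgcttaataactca
Nlrp9a (chr7:26534923-26535022, +): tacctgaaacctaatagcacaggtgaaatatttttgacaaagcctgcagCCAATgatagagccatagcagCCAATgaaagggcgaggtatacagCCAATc
Clpp (chr17:56990164-56990263, +): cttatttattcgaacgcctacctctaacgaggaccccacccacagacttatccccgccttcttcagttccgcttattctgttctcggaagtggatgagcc
Uqcc3 (chr19:8880934-8881033, -): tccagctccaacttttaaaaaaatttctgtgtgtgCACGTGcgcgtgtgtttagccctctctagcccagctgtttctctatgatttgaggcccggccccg
Itgb5 (chr16:33829565-33829664, +): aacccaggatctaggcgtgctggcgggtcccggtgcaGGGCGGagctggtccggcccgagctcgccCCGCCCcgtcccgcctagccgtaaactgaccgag

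Motif shares were counted in windows of 300 bases, from 250 before the start to 50 after it, for all 32851 RefSeq promoters, for 8890 promoters of tested genes, 814 of genes higher in mating 2 and 1867 of genes lower in it. CTTCCGG was found in 8.86% of all promoters, 19.7% of those of tested genes, 11.5% of those of genes higher in mating 2 and 27.8% of those of genes lower in mating 2. GGGCGG was found in 35.7%, 62.9%, 52.6% and 62.4% in the same order, TATAAA in 13.6%, 6.85%, 10.6% and 7.71%, and CACGTG in 7.15%, 10.4%, 8.48% and 13.3%. CCAAT (37.4%, 39.4%, 39.2% and 36.7%) and GGATTA (7.06%, 6.01%, 7.99% and 5.89%) varied least. These matches are descriptions of the letters in the window and were not tested.

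Called maternal transcripts were higher in mating 2 with 3 exceptions. Over 4 lists of oocyte genes, 41 of 84 tested members were higher, 3 were lower and 40 did not pass the test, beside 9.04% higher and 21.6% lower over all genes, with a median difference of 0.96 beside -0.32 over all genes. Of the subcortical maternal complex, a protein assembly under the oocyte membrane, 3 of 7 members were higher, namely Zbed3, Nlrp4f and Ooep, and 0 were lower. Zbed3 ranged from 9.53 to 11.5 log2 RPM in mating 1 and from 10.4 to 13.3 in mating 2, a difference of 1.47 (SE 0.33, limma, adjusted p = 0.00105). Nlrp4f differed by 1.42, and Ooep, at no more than 8 reads per embryo in mating 1, by 1.51 (adjusted p = 0.0372). Ooep kept its call in 13 of 28 alternatives, with adjusted p up to 0.19 in the others. Nlrp5 and Padi6, of the same complex, had differences of -0.00 and -0.59 and were not called. Among zona pellucida and oocyte-secreted factors, 4 of 9 were higher, 0 were lower and the median difference was 0.99. These were Oosp3, Oosp1 (2.70), and the oocyte growth factors Gdf9 (1.04, called in 14 of 29 alternatives with adjusted p up to 0.163) and Bmp15 (0.99), whereas the coat genes Zp1 and Zp2 did not pass the test (0.25 and -0.38), nor did Zp3 (adjusted p = 0.0735), which ranged from 5.54 to 6.38 log2 RPM in mating 1 and from 3.14 to 6.53 in mating 2.

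Regulators of maternal mRNA storage, translation and decay included 10 higher members of 22 and 0 lower (median 0.61). Btg4, the adaptor that brings the CCR4-NOT deadenylase to maternal mRNAs, ranged from 6.46 to 9.47 log2 RPM in mating 1 (median 8.07) and from 9.74 to 11.2 in mating 2 (median 10.9). The litters did not overlap, and the difference was 2.52 (SE 0.30, limma, adjusted p = 2.04e-07). Cnot7, a catalytic deadenylase subunit, was higher by 1.57, and its reads cannot be told from those of Zdhhc2 where exons overlap. Eif4e1b, an oocyte cap-binding protein gene, ranged from the floor to 6.23 and from 5.41 to 7.99, a difference of 2.06. The germ cell translation regulators Dazl and Zar1, named here after their values were seen, differed by 1.83 and 1.79. Zar1 was at the floor in 6 of 7 embryos of mating 1, its difference ran from 0.92 to 2.89 over the alternatives, and 1 of 28 lost the call (adjusted p = 0.174).

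The list of other maternal transcripts had 24 higher and 3 lower members of 46 (median 1.09). Spin1, a histone reader abundant in oocytes, ranged from 10.6 to 12.1 log2 RPM in mating 1 and from 12.1 to 13.5 in mating 2 without overlap, a difference of 1.59 (SE 0.22, adjusted p = 2.69e-06). Omt2b, an oocyte maturation gene, ranged from 10.1 to 12.2 and from 12.7 to 13.6, a difference of 1.64 (SE 0.24, adjusted p = 8.86e-06). Tcl1, an AKT co-activator of oocytes, ranged from 6.00 to 9.96 and from 9.66 to 12.5, a difference of 3.48. Tet3, the maternal 5-methylcytosine oxidase, differed by 1.44 and H1foo, the oocyte linker histone, by 2.12. The 3 lower members were the DNA methyltransferases Dnmt1 (-1.16, adjusted p = 0.0452) and Dnmt3a (-1.16, adjusted p = 0.0349) and the zinc finger factor Sall4 (-0.96, adjusted p = 0.0242). None of these 3 passed the test after centring. The mean level of the list per embryo ran from 5.56 to 6.73 log2 RPM in mating 1 and from 6.67 to 7.75 in mating 2, where HET1f was the highest of mating 1 and HET1j the lowest of mating 2. After centring, the 4 maternal lists had 3, 5, 10 and 29 higher members and 0 lower in each. These counts stand beside 16.1% higher and 12.3% lower over all genes.

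Minor-wave and 2C-like genes showed the largest list median. Of 40 tested members, 26 were higher in mating 2, 1 was lower and 13 did not pass the test, beside 9.04% higher and 21.6% lower over all genes, with a median difference of 2.09. The mean level of the list ran from 3.45 to 4.89 log2 RPM in mating 1 (median 3.81) and from 5.03 to 6.23 in mating 2 (median 5.58), so that the litters did not overlap. E330034G19Rik ranged from 5.91 to 7.25 in mating 1 and from 7.83 to 10.7 in mating 2, a difference of 3.06 (SE 0.31, limma, adjusted p = 1.34e-08). Gm4340 had at most 5 reads per embryo in mating 1 and 9 to 131 in mating 2, with pooled levels of 2.43 and 59.2 RPM (adjusted p = 2.99e-05). Zscan4d, the Zscan4 copy best known from the two-cell embryo, ranged from 2.50 to 5.35 and from 5.38 to 7.55, a difference of 2.07 (SE 0.47, adjusted p = 0.00124). Zfp352, a 2C zinc finger gene, ranged from the floor to 6.72 and from 5.17 to 8.60, a difference of 2.24. Tmem92, used as a 2C marker, differed by 2.17. The 1 lower member was Pramel7, a preimplantation gene (-1.13, adjusted p = 0.00435), which did not pass after centring (adjusted p = 0.0808). Sp110 did not pass the test, at a difference of 0.07 (adjusted p = 0.836), nor did Tdpoz1, Tdpoz2, Tdpoz3 and Tdpoz4 (0.14, -0.45, 1.09 and -1.18). Zscan4, Tcstv, Usp17l and Tdpoz copies are near-identical, and reads that mapped to several places were filtered out by the authors, so that values of single copies are uncertain. After centring, 29 members were higher and 0 lower, beside 16.1% and 12.3% of all genes.

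**Figure D3:**
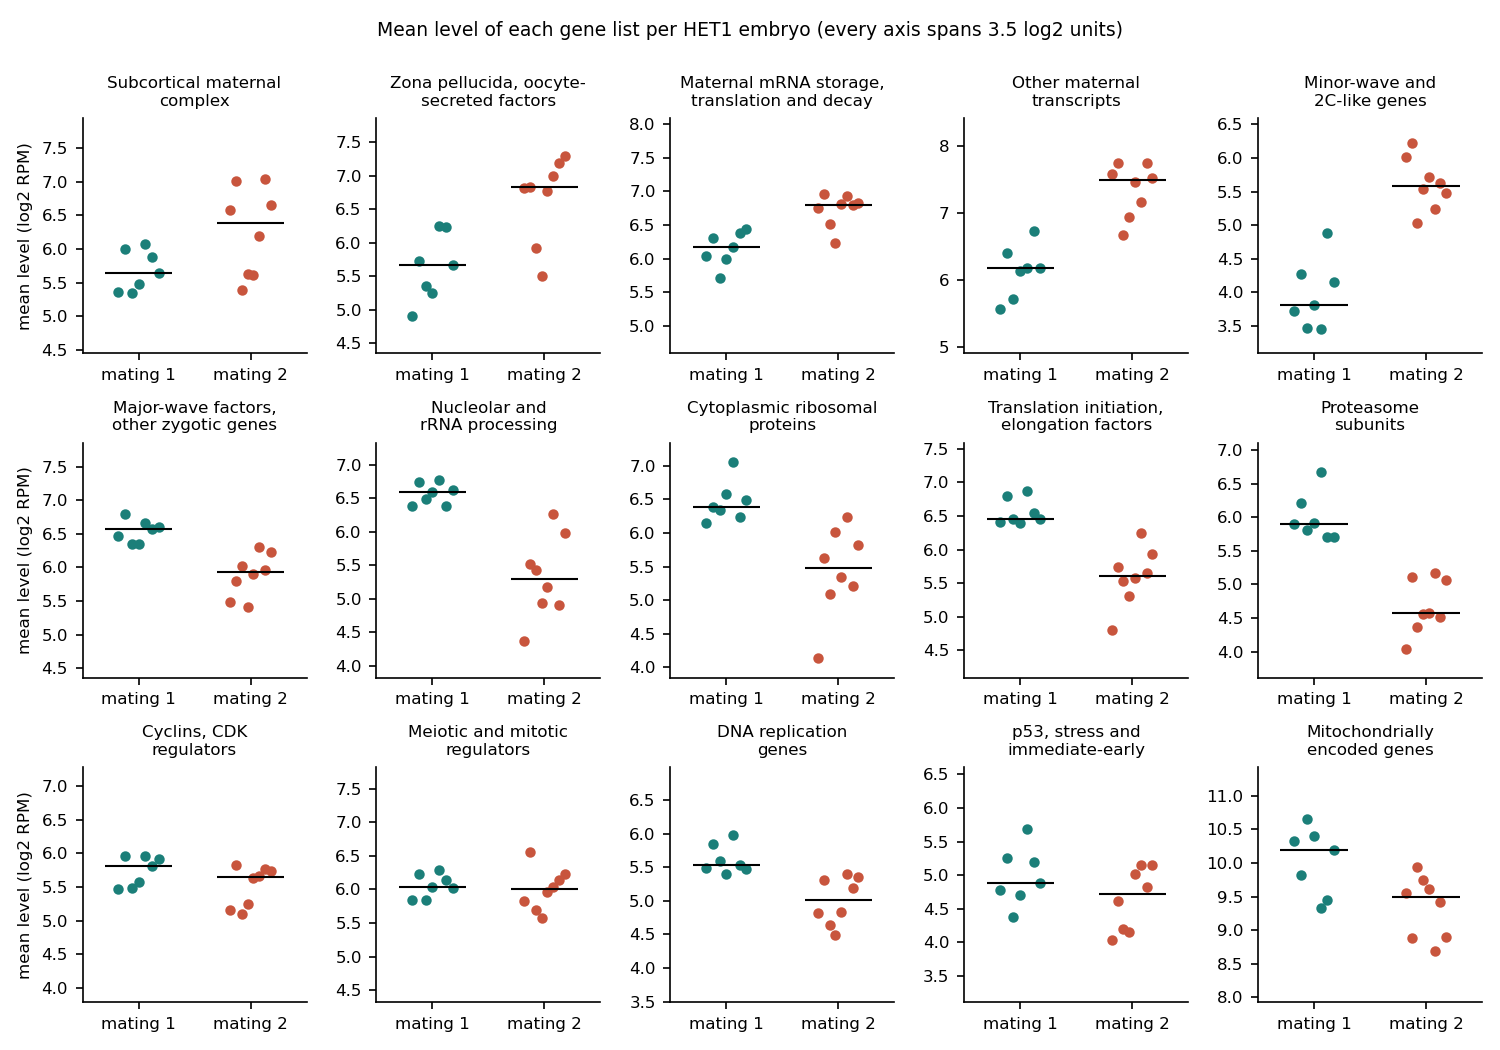
Mean level of the tested members of each gene list (log2 RPM) in each HET1 embryo, 1 point per embryo, with the median of the litter as a line. Every axis spans the same range. Levels are as deposited, without centring, and the median difference over all genes was -0.32. The litters do not overlap for minor-wave and 2C-like genes, higher in mating 2 (highest of mating 1 4.89, lowest of mating 2 5.03). Nor do they for lists lower in mating 2, given as lowest of mating 1 and highest of mating 2. These are proteasome (5.71 and 5.17) and, by narrower margins, translation-factor (6.40 and 6.24), nucleolar (6.38 and 6.26), major-wave (6.35 and 6.30) and DNA replication genes (5.404 and 5.397).

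Of the transcription factors and other genes of the major wave, the called members were lower in mating 2 with 1 exception. Of 31 tested members, 13 were lower in mating 2, 1 was higher and 17 did not pass the test, beside 21.6% lower and 9.04% higher over all genes. Dppa2 and Dppa4, described above, were among the 13 lower members, as was Ccne1, which is also in the cyclin list. The median was -0.55, or -0.23 relative to the median of all genes. The mean level of the list ran from 6.35 to 6.79 log2 RPM in mating 1 and from 5.42 to 6.30 in mating 2. Besides Impdh2, Pdxk, which makes pyridoxal phosphate, ranged from 8.47 to 9.84 in mating 1 and from 4.69 to 8.53 in mating 2, a difference of -2.38 (SE 0.35, limma, adjusted p = 9.99e-06). Tead4, a DNA-binding partner of Yap1, had a median of 4.82 in mating 1 and sat at the floor in the median embryo of mating 2, a difference of -2.13 (adjusted p = 0.00294) that depends on the floor and ran from -3.43 to -1.47 over the alternatives. Tfap2c, Nr5a2 and Rarg, DNA-binding factors of early embryos, differed by -1.63, -1.24 and -2.02, and Nr5a2 lost its call after centring (adjusted p = 0.0686). Obox6, a homeobox gene, ranged from 8.52 to 9.09 and from 5.59 to 8.07, a difference of -1.80 (SE 0.28, adjusted p = 2.2e-05). The 1 higher member was Yap1 (0.59, adjusted p = 0.0343), called in 20 of 29 alternatives with adjusted p up to 0.431, and Mdm4 did not pass the test (0.26, adjusted p = 0.272). Pou5f1, Klf17 and Klf4 had differences of 0.53, 0.10 and 0.09 and were not called. Tead4, Tfap2c, Nr5a2, Rarg, Obox6, Pou5f1, Klf17 and Klf4 were named after their values were seen. After centring, 9 members were lower and 2 higher, beside 12.3% and 16.1% of all genes.

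All called nucleolar and rRNA-processing genes were lower in mating 2. Of 72 tested members, 44 were lower, 0 were higher and 28 did not pass the test, beside 21.6% lower over all genes, and the difference was below 0 in all 72 (median -1.19, or -0.87 relative to the median of all genes). The mean level ran from 6.38 to 6.77 log2 RPM in mating 1 and from 4.38 to 6.26 in mating 2, with HET1h the lowest and HET1m and HET1o the highest of mating 2. Emg1, an rRNA methyltransferase gene, ranged from 6.11 to 7.38 in mating 1 and from the floor to 6.17 in mating 2, a difference of -2.68 (SE 0.48, limma, adjusted p = 0.000109). Ubtf, which loads RNA polymerase I on ribosomal DNA, ranged from 6.27 to 8.02 and from the floor to 6.46, a difference of -2.46 (SE 0.51, adjusted p = 0.000552). Polr1a, the largest subunit of that polymerase, and Mybbp1a, a nucleolar protein gene, differed by -1.34 and -2.36. Polr1a lost its call after centring (adjusted p = 0.0632). The most highly read members did not pass the test, with Npm1, the nucleolar histone chaperone, at -0.41 (adjusted p = 0.184) and Nop58, a box C/D snoRNP protein gene, at -0.28 (adjusted p = 0.434). After centring, 26 members were lower and 0 higher, beside 12.3% and 16.1% of all genes.

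Of 136 translation genes, 64 were lower in mating 2, 1 was higher and 71 did not pass the test. Of 82 cytoplasmic ribosomal protein genes, 39 were lower in mating 2, 0 were higher and 43 did not pass the test (median -0.96), beside 21.6% lower over all genes. Rpl7 ranged from 5.84 to 7.28 log2 RPM in mating 1 and from the floor to 4.74 in mating 2, a difference of -3.45 (SE 0.48, limma, adjusted p = 3.22e-06), and Rpl14 differed by -3.00. Rpl41 differed by -0.93 (adjusted p = 0.0114) and Rplp0 did not pass the test (-0.24, adjusted p = 0.525). These genes have many processed pseudogenes, so that reads can be lost or shared. The share of gene reads in ribosomal protein genes was between 1.00% and 1.85% in mating 1 (median 1.24%) and between 0.348% and 1.32% in mating 2 (median 0.856%), an exact permutation p of 0.0127 (adjusted p = 0.0637 over 5 library measures). After centring 15 of 82 were lower and 1 was higher, the former not far from the 12.3% of all genes. Without HET1e, which had the highest level of this list, 25 were lower, in a fit that called 2323 genes in all.

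Of 54 initiation and elongation factor genes, 25 were lower, 1 was higher and 28 did not pass the test (median -1.06), beside 21.6% lower and 9.04% higher over all genes. Besides Abce1, the eIF3 subunit gene Eif3g ranged from 6.02 to 7.03 log2 RPM in mating 1 and from the floor to 5.68 in mating 2, a difference of -3.40 (SE 0.52, adjusted p = 1.59e-05). Eif4g2 and Eif5, initiation factor genes with the highest levels of this list, had differences of 0.09 and -0.23 and were not called. The 1 higher member was Eef2k, the kinase that inhibits elongation factor 2, which ranged from 3.02 to 6.00 and from 4.65 to 7.78, a difference of 1.90 (SE 0.46, adjusted p = 0.00249). After centring, 14 were lower and 1 higher, beside 12.3% and 16.1% of all genes.

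Proteasome subunit genes had the lowest median of the lists with more than 1 tested gene. Of 42 tested members, 28 were lower in mating 2, 0 were higher and 14 did not pass the test (median -1.41), beside 21.6% lower over all genes. The mean level ran from 5.71 to 6.67 log2 RPM in mating 1 and from 4.04 to 5.17 in mating 2, so that the litters did not overlap. The ATPase subunit gene Psmc2 ranged from 4.99 to 7.21 in mating 1 and from the floor to 4.83 in mating 2, a difference of -3.26 (SE 0.54, limma, adjusted p = 4.45e-05). Psmc5, another ATPase of the same ring, had 11 to 45 reads in mating 1 and at most 3 in mating 2, a difference of -3.09 (SE 0.49, adjusted p = 2.82e-05), and its fitted difference depends on the floor. Psma3, a core particle subunit, ranged from 7.79 to 9.34 in mating 1 and from 6.94 to 8.09 in mating 2 (adjusted p = 0.00452). Psme4, an activator of the spermatid and nuclear proteasome, had a difference of 0.62 and was not called (adjusted p = 0.0551). After centring, 18 were lower and 1 was higher, beside 12.3% and 16.1% of all genes.

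**Figure D4:**
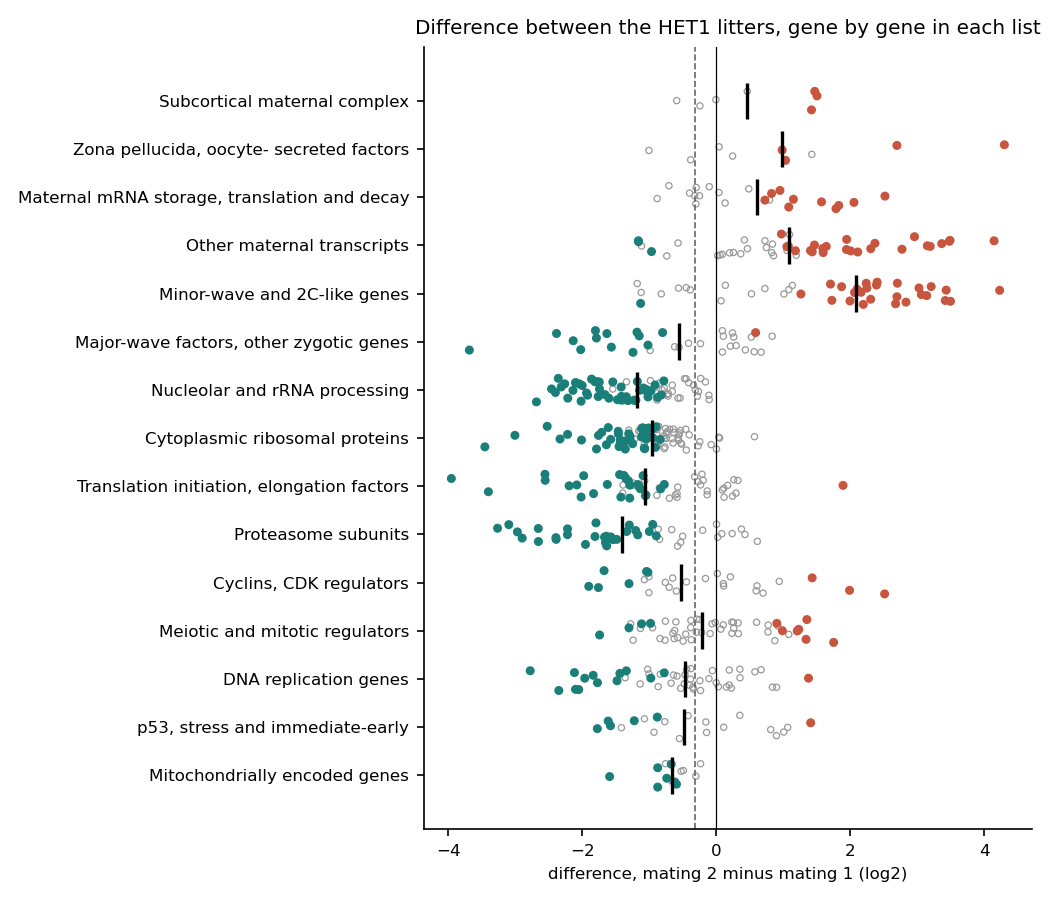
Difference between the HET1 litters (mating 2 minus mating 1, log2) for each tested gene of the lists, 1 point per gene, filled where the adjusted p was under 0.05 (orange higher, green lower). Black bars are list medians, from -1.41 for proteasome subunits to 2.09 for minor-wave and 2C-like genes, and the dashed line is the median of all 9207 genes, -0.32.

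Pooled, cell cycle genes were called in both directions at shares near those of all genes, but the 3 lists in the pool differed. Over 3 lists, 11 of 123 tested members were higher in mating 2, 23 were lower and 89 did not pass the test, beside 9.04% and 21.6% of all genes, with a median difference of -0.38. Among cyclins and CDK regulators, 3 of 26 were higher and 6 lower. After centring 4 were higher and 2 lower, beside 16.1% and 12.3% of all genes. The 3 higher members were Wee2, Cks1b and Cks2, and their litters did not overlap. Wee2, the oocyte kinase that inhibits CDK1, ranged from 4.82 to 7.32 log2 RPM in mating 1 and from 7.78 to 9.44 in mating 2, a difference of 2.52 (SE 0.35, limma, adjusted p = 3.06e-06). Cks1b and Cks2, which encode small CDK-binding proteins, differed by 1.99 and 1.43. The lower members were Cdk7 and Mnat1 of the CDK-activating kinase (-1.30 and -1.76), the G1 genes Cdk4, Ccnd3 and Ccne1 (-1.90, -1.67 and -1.02) and the phosphatase gene Cdc25c (-1.04). Ccnd3 was called in 13 of 29 alternatives, with adjusted p up to 0.168. After centring, Cdk7, Ccne1, Cdc25c and Ccnd3 did not pass the test (adjusted p = 0.0579, 0.0617, 0.0882 and 0.0847). Ccnb1, a mitotic cyclin, had a difference of 0.02 and was not called (adjusted p = 0.957).

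Among meiotic and mitotic regulators, 7 of 49 were higher and 4 lower, beside 9.04% and 21.6% of all genes. The other 38 did not pass the test, and the list median was -0.22. After centring 12 were higher and 1 lower, beside 16.1% and 12.3% of all genes. Fbxo43, which holds the anaphase-promoting complex in check in oocytes, ranged from 4.21 to 6.08 and from 6.13 to 7.39, a difference of 1.75 (SE 0.36, adjusted p = 0.000527). Fbxo5, its relative of the mitotic cycle, Plk4, a centriole kinase, Mad2l1, a spindle checkpoint gene, and Pttg1, the securin, differed by 1.24, 1.36, 1.34 and 0.99. Ndc80, a kinetochore gene, differed by -1.74 (adjusted p = 0.00814), and Prc1 was not called (-0.57). DNA replication genes had 1 higher and 13 lower of 48 (median -0.47), beside 9.04% and 21.6% of all genes. After centring 3 were higher and 9 lower, beside 16.1% and 12.3%. Gins3, a subunit of the replicative helicase complex, had 5 to 47 reads in mating 1 and reads in 1 of 8 embryos of mating 2, a difference of -2.77 (SE 0.47, adjusted p = 5.24e-05) that depends on the floor. Rrm1, the large subunit of ribonucleotide reductase, differed by -2.35, and Gmnn and Dbf4 were not called (-0.05 and 0.23). The 1 higher member was Orc5, of the origin recognition complex (1.38, adjusted p = 0.00182).

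Stress genes, mitochondrial transcripts and later-stage genes were shorter lists. Of 20 p53, stress and immediate-early genes, 5 were lower (Hspa5, Sesn2, Trib3, Hspb1 and Trp53), beside 21.6% of all genes. The 1 higher member was Junb (1.41, limma, adjusted p = 0.0454), beside 9.04%. After centring 1 was lower and 1 higher, beside 12.3% and 16.1% of all genes. Hspa5, the chaperone of the endoplasmic reticulum, ranged from 8.14 to 9.02 log2 RPM in mating 1 and from 6.41 to 8.20 in mating 2, a difference of -1.22 (SE 0.26, limma, adjusted p = 0.000673). Of these 6, Trp53, Hspb1, Trib3, Sesn2 and Junb each lost the call in at least 7 of 29 alternatives. Of 13 mitochondrially encoded genes 7 were lower and 0 higher (median -0.66), and after centring 0 passed the test in either direction. mt-Co1 differed by -0.87 and mt-Co2 by -1.59, and mt-Cytb was not called (-0.30). The share of gene reads in mitochondrially encoded genes was between 8.35% and 23.1% in mating 1 and between 5.48% and 15.9% in mating 2 (exact permutation p = 0.0480, adjusted p = 0.12). Of 25 genes of later preimplantation stages only 8 passed the filter on low values, and 17, Cdx2, Nanog and Sox17 among them, did not. Gata4, Fgf4 and Esrrb were lower (-1.60, -1.80 and -2.31) and Dab2 was higher (1.16, called in 18 of 29 alternatives). These counts of 3 and 1 in 8 genes stand beside 21.6% and 9.04% of all genes. After centring, 3 were lower and 3 higher, beside 12.3% and 16.1%. Single markers that passed the filter from other lists were lower too, namely Amhr2 of the granulosa list (-1.55, adjusted p = 0.0258, called in 22 of 29 alternatives and in neither rescaling) and the testis-type lactate dehydrogenase gene Ldhc of the sperm list (-1.72, adjusted p = 0.0129, not called after quantile normalisation), whereas Pax2 of the oviduct list was not called (0.46).

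Reads of the 9 Y-linked genes in the table divided mating 2. All 7 embryos of mating 1 had between 27 and 205 such reads. In mating 2, HET1i, HET1j, HET1k, HET1m and HET1n had between 25 and 168, whereas HET1h had 1 and HET1l and HET1o had 0. Uty differed by -1.70 (limma, adjusted p = 0.0253) and Usp9y was not called (-0.30). The Uty call was lost after centring and after quantile normalisation. Sex was not among the labels. Leaving out those 3 embryos, an alternative chosen after the values were seen, left 1947 of 9207 genes called. Of all genes 557 were higher and 1390 lower, against 832 and 1991 with every embryo. In the lists, 25 of 40 minor-wave and 2C-like genes were higher (26 with every embryo). Lower were 32 of 72 nucleolar (44), 22 of 42 proteasome (28) and 19 of 82 ribosomal protein genes (39). Their part in the remaining result was not tested.

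Library measures were compared between the litters as well. Between 10383 and 12703 genes had a read in mating 1 (median 12011) and between 9358 and 12115 in mating 2 (median 11285), an exact permutation p of 0.113 (adjusted p = 0.188). With all embryos thinned to 247667 reads, the ranges were 9720 to 10725 and 8488 to 10228 genes (adjusted p = 0.0351). The 50 most abundant genes took between 15.7% and 30.8% of gene reads in mating 1 and between 16.7% and 28.4% in mating 2 (p = 0.744). Median transcript length was 2789 bases for genes higher in mating 2, 3031.5 bases for genes lower in it and 3384 bases for all tested genes (9164 of 9207 matched). Median GC content was 45.0%, 50.4% and 48.4% in the same order. In the tercile of genes lowest in GC 14.3% were higher and 15.8% lower, and in the tercile highest in GC 4.22% were higher and 28.4% lower. After centring within 25 bins of length and GC content, chosen after the values were seen, 1468 genes were higher and 1323 lower.

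The same genes were compared between the 2 WT litters, which held 10 and 4 embryos, and the unequal sizes lower the power of that test. With the same floor and genes, 5 of 9207 passed the test (0.0543%, limma), all higher in WT mating 2 (Calb1, Egf, Ndufb8, Sqstm1 and Tmsb4x), 1451 had an unadjusted p under 0.05, and 0 of the 5 were among the HET1 calls. A difference of more than 1 in either direction was seen for 18.8% of genes between the WT litters and for 38.2% between the HET1 litters. The median difference of minor-wave and 2C-like genes was -0.12 between the WT litters and 2.09 between the HET1 litters. For other maternal transcripts it was 0.26 and 1.09. The other 3 maternal lists were closer, at 0.59 and 0.47 for the subcortical maternal complex, 0.71 and 0.99 for zona pellucida and oocyte-secreted factors, and 0.44 and 0.61 for mRNA storage and decay. Cyclins and CDK regulators (-0.50 and -0.52) and meiotic and mitotic regulators (-0.37 and -0.22) were alike or further from 0 between the WT litters. The medians were, in the same order, for nucleolar genes -0.58 and -1.19, for ribosomal protein genes 0.07 and -0.96 and for proteasome genes -0.52 and -1.41. For major-wave genes they were -0.30 and -0.55. Over all genes tested they were -0.09 and -0.32, so the major-wave list lay only a little below all genes in both comparisons. Whether the litter difference itself differed between crosses was not tested, since mating numbers do not pair litters across crosses.

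Set beside all 6 litters, the HET1 mating 1 embryos overlapped the WT embryos for the 2C list and the HET1 mating 2 embryos did not. Minor-wave and 2C-like genes averaged from 3.61 to 4.70 log2 RPM over the embryos of WT mating 1 and from 3.51 to 4.76 over those of WT mating 2, against 5.03 to 6.23 in HET1 mating 2. The 2 litters from Dppa2/4+/- sires, which hold HET2 and HOM embryos, ran from 4.62 to 5.88 in their mating 1 and from 3.20 to 4.22 in their mating 2. Nucleolar genes averaged from 5.36 to 6.19 and from 5.94 to 7.25 in the same litters, and from 4.38 to 6.26 in HET1 mating 2. The mating 1 litter of these sires was close to HET1 mating 2 in some lists. Medians were 5.49 and 5.58 for the 2C list, 7.15 and 7.49 for other maternal transcripts and 5.51 and 5.49 for ribosomal protein genes. Others lay further apart, with 5.79 and 5.30 for nucleolar genes and 6.33 and 6.82 for zona pellucida and oocyte-secreted factors. For the subcortical maternal complex they were 5.98 and 6.38, and for meiotic and mitotic regulators 6.36 and 6.00.

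**Figure D5:**
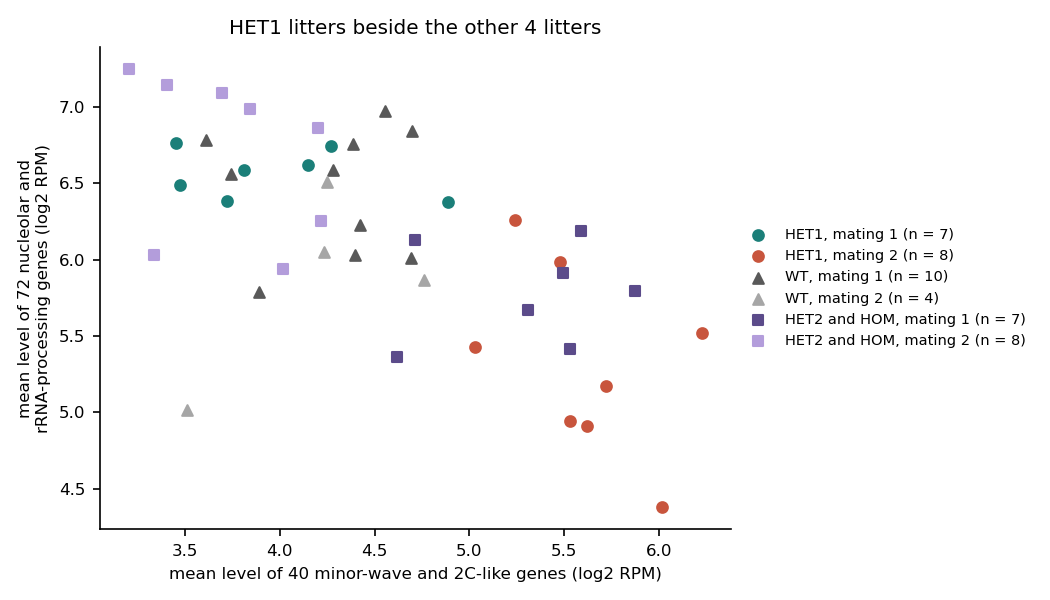
Mean level of 40 minor-wave and 2C-like genes (horizontal, log2 RPM) against that of 72 nucleolar and rRNA-processing genes (vertical, log2 RPM), 1 point per embryo for all 44 embryos, coloured by litter. HET1 mating 2 lies between 5.03 and 6.23 on the horizontal axis, above every WT embryo, and HET1 mating 1 lies between 3.45 and 4.89.

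By class, then, the called members of the maternal lists and of the minor-wave and 2C-like list were mainly higher in mating 2. Those of the major-wave, nucleolar, translation and proteasome lists were mainly lower. Called DNA replication genes were mainly lower too, and the other cell cycle lists were called in both directions. Lists and members were chosen with earlier results of these data known, so these directions are descriptions and not tests. Members that did not pass the test numbered 40 of 84 maternal, 13 of 40 minor-wave, 17 of 31 major-wave, 28 of 72 nucleolar, 43 of 82 ribosomal protein, 28 of 54 translation factor and 14 of 42 proteasome genes, and the lower ribosomal protein genes went from 39 to 15 after centring. The embryos were labelled E1.5 without a finer stage, and the stage within the two-cell period cannot be told apart from dam, collection, RNA quality or library preparation here. In bulk values of a single embryo, fewer transcripts made and more transcripts degraded cannot be told apart either.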

How the data were processed

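Single two-cell embryos were profiled by Smart-seq2. Per the study's methods and the submitters' processing notes, the authors trimmed reads with Trim Galore 0.6.5 and cutadapt 2.3, aligned them to GRCm38 with HISAT2 2.1.0, kept alignments with a mapping quality of at least 20 and quantified mRNA probes without regard to strand in SeqMonk. The deposited values are log2 RPM, in which 0 reads were entered as 0.9 reads, and 99.9997% of them came back as whole reads within 0.05. Litters were taken from the sample labels, and every column of the table was assigned to a sample.

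Values were raised to a common floor, 1.86 log2 RPM, and genes with a mean of at least 2.5 over the 15 embryos were tested with limma 3.58.1 (R 4.3.3, empirical Bayes, Benjamini-Hochberg adjustment at 0.05) with litter as the only term. Scaling, thinning, permutation tests and plots used Python 3.11.15 with numpy 2.4.6, pandas 2.3.3 and matplotlib 3.10.9. The fitting code was tested on simulated data. Named genes were Dppa2 and Dppa4, the 10 largest differences per direction among called genes with non-overlapping litters (without Gm-numbered and Rik symbols), and of each list the 2 tested members with the highest mean and the 2 called members with the largest absolute difference. Further genes were named after their values were seen: Dnmt1, Dnmt3a, Sall4, Tcl1, Tet3, H1foo, Dazl, Zar1, Gdf9, Zscan4d, Zfp352, Tmem92, Pramel7, Eef2k, Orc5, Junb, Trp53, the cyclin and kinase genes beyond Wee2, Cks1b, Cks2 and Ccnb1, Fbxo5, Plk4, Mad2l1, Polr1a, Mybbp1a, Tead4, Tfap2c, Nr5a2, Rarg, Obox6, Nlrp4e, Nlrp9a, Uqcc3, Itgb5, those of the closing observations and the uncalled members quoted for contrast. Members and lists were chosen with earlier results of these data known. Alternatives covered the filter, floor, pseudocount, scaling and each embryo left out. Depth sets the precision of low values, which is counting error only.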

Additional observations from a re-analysis of the deposited data

Results flagged for a closer look

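Of 86 groups of embryos examined, 7 held an embryo set apart from its litter by more than Dixon's 95% critical value. Chance sets apart about 1 in 20 groups of untied values. That rate does not hold where most embryos were tied at the floor, as for Nipal1 (7 of 8) and for Slc4a11 and Abce1 (6 of 8 each). Most of the 7 concerned genes near the floor. In mating 1, HET1f had the highest Gnpda2 level, 2.59 log2 RPM. In mating 2, the highest embryo stood apart for Nipal1 (HET1l, 2.01), Slc4a11 (HET1n, 3.26), Abce1 (HET1l, 3.60), Uqcrc1 (HET1o, 4.24) and Clpp (HET1k, 4.78). HET1j had the lowest Smco4 level of mating 2, 5.06 log2 RPM.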

How the results depend on the processing

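Without each embryo in turn, between 2323 (without HET1e) and 3044 (without HET1m) genes were called, 694 to 913 of them higher in mating 2 and 1595 to 2166 lower. Called ribosomal protein genes ranged from 25 (without HET1e) to 48 (without HET1m), and nucleolar genes from 34 to 51. With embryos centred on their medians, 1486 genes were higher and 1130 lower, and the lower members numbered 26 for nucleolar genes, 15 for ribosomal proteins, 14 for translation factors and 18 for proteasome subunits. Quantile normalisation gave 1302 higher genes and turned Mdm4, which was not called, to -0.54 with a call in limma. Without the filter on low values, 27 nucleolar and 24 ribosomal protein genes were lower, beside 1505 of all 15961 genes tested. Centring within bins of length and GC content gave 1468 higher and 1323 lower genes and 22 lower ribosomal protein genes. A separate fit without the 3 embryos with at most 1 Y-linked read gave 19 lower ribosomal protein genes. Both of these alternatives were chosen after the data were seen. Thinning to equal depth gave differences of -761 genes detected and -0.437 percentage points of ribosomal protein reads (exact permutation test, adjusted p = 0.0351 for both). Of 81 named genes 66 were called, and 50 kept call and direction in each of the 29 alternatives. The causes were not tested. No paired analysis was possible because embryo letters are unique to a litter. Depth limits genes near the floor.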

Other observations

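Other gene families, grouped by symbol after the values were seen, are described by counts as deposited only, and counts after centring were not made. They are to be read beside the 21.6% of all genes that were lower and the 9.04% that were higher. Of 82 nuclear-encoded respiratory chain and ATP synthase genes, 37 were lower in mating 2 and 2 were higher (median -1.16). The 2 higher genes were Cox6b2, a testis-type complex IV subunit, which ranged from 4.64 to 6.84 log2 RPM in mating 1 and from 5.83 to 7.66 in mating 2, and Ndufa4, which ranged from 4.00 to 7.15 and from 6.01 to 7.95. Mitochondrial ribosomal protein genes were lower in 32 of 62 and higher in 0 (median -1.31), and Mrpl22 fell between 4.91 and 6.67 in mating 1 and between the floor and 4.54 in mating 2. Aminoacyl-tRNA synthetase genes, which charge tRNAs for translation, were lower in 9 of 16 and higher in 0 (median -1.34), and their mitochondrial counterparts in 3 of 9 and 0 (median -1.18). Subunits of the chaperonin that folds actin and tubulin were lower in 6 of 8 and higher in 0 (median -1.09).

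The Nlrp genes, many of them expressed in oocytes, were higher in mating 2 in 7 of 12 (median 1.24), and the 1 lower member was Nlrp12, which shares exonic bases with a miRNA cluster. Obox genes, homeobox genes of the oocyte and early embryo, were split, with 4 of 8 higher and 2 lower, namely Obox6 and Obox8. Obox8 ranged from 6.66 to 8.29 log2 RPM in mating 1 and from the floor to 7.04 in mating 2, a difference of -2.63 (SE 0.50, limma, adjusted p = 0.000213). Obox copies are similar in sequence, and values of single copies are uncertain. Of 42 importins, exportins and nucleoporins, 12 were lower and 3 were higher, not far from the 21.6% and 9.04% of all genes. The 3 higher genes were the importins Kpna7, known from oocytes (2.23), Ipo8 (1.19) and Kpna3 (0.70, called in 21 of 29 alternatives). Of 193 Zfp-numbered zinc finger genes, 48 were lower and 13 higher (median -0.51), shares near the 21.6% and 9.04% of all genes.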
